A study of Caenorhabditis elegans with 2 samples.

Results

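The translation elongation factor genes described here are eef-1A.1, eef-1A.2, eef-1G, eef-2, iff-1 and iff-2, which are 6 of the 19973 protein-coding nuclear genes of Caenorhabditis elegans. They were examined by ChIP-seq of tagged C34B4.2, an assay that sequences the DNA crosslinked to a protein. All samples were of 1 group, with 2 biological replicates of whole, mixed-sex L1 larvae of strain OP552 (unc-119(tm4063) III; wgIs552), taken 6 h after synchronization of bleached, starved L1 larvae. The strain stably carries C34B4.2 with GFP and FLAG at its C terminus. Per the descriptions the immunoprecipitation used an antibody to GFP, although the antibody label names C34B4.2. No second group and no untagged strain was analysed here. Which promoter drives the transgene, and in which cells of the larva, is not given in the sources used here. The genes were chosen by family with earlier results of these data in view, including the signal of their promoter peaks. Those values are therefore descriptions, and no test was run on them.

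Translation elongation adds amino acids to the growing protein. The GTPase eEF1A brings aminoacyl-tRNA to the ribosome. Its exchange factor complex, of which eEF1G is a subunit, reloads it with GTP. The GTPase eEF2 then moves the ribosome along the message. The factor eIF5A, which carries the modified lysine hypusine, helps the ribosome through stretches that are hard to join. In C. elegans eEF1A is made from eef-1A.1, long known as eft-3 and the source of a promoter widely used for broad transgene expression, and from eef-1A.2. The eIF5A paralogs are iff-1, known for its role in the germline, and iff-2, known for its role in the soma. A newly hatched L1 larva has very few germline cells, and whole animals do not resolve germline from soma.

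The sequences shown are the 101 bases centred on the strongest pooled candidate summit in each gene's promoter window, since the contrast between paralogs rests on these places. They are read from the RefSeq WBcel235 assembly, the same sequence as ce11, 5′ to 3′ on the strand of the gene. The sequence of eef-2 is not shown. Capitals mark every match to 11 words searched. On both strands these were the word ACGCAG, the word GACGCA that overlaps it by 5 bases, the word CGCGCA, the word GCGCAC that overlaps that one by 5 bases, and the word GCGTCA. These first 5 words had been found at the same peaks earlier. Also on both strands came TATAAA as in a TATA box, GAGAGA as a GA repeat, CACGTG as in an E box, TGACGT as in a CRE and GGGCGG as in a GC box. TTTCAG, the usual end of a worm splice acceptor, was searched on the strand of the gene only.
eef-1A.1 (chrIII:6972032-6972132, minus strand): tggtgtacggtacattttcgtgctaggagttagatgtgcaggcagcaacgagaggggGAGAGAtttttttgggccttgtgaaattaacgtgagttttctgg
eef-1A.2 (chrX:7822999-7823099, plus strand): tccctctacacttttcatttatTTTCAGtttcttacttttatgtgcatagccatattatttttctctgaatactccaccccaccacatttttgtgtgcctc
eef-1G (chrV:10965123-10965223, plus strand): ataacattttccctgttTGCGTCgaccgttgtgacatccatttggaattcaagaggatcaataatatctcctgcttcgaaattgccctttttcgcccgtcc
iff-2 (chrII:8561373-8561473, minus strand): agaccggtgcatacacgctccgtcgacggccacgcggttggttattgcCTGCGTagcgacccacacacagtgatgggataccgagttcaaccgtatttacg
iff-1 (chrIII:9746763-9746863, minus strand): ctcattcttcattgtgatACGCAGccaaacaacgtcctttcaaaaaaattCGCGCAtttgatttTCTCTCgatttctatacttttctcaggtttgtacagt

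Among the 6 genes, eef-2, iff-2 and eef-1A.1 had an IDR-thresholded peak at their promoter, and eef-1G, eef-1A.2 and iff-1 had only candidates below that list. IDR, the irreproducible discovery rate, measures how well the rank of a peak repeats between replicates. The thresholded list equals the first 267 pooled ranks. Of its peaks, 2 had no overlapping candidate in replicate 1 and 1 had none in replicate 2. A place in the list alone therefore does not show that a peak repeats. A promoter window covered 1000 bp before and 200 bp after each annotated start of a transcript. Over all protein-coding genes, 276 of 19973 (1.38%) held a thresholded summit in that window. The members were chosen with this contrast known, so nothing is read from their share. The authors' candidate lists hold 30000 regions each and include background, so a candidate alone marks no peak. At least 1 pooled candidate lay in the window of 6 of the 6 genes, against 38.1% of all protein-coding genes. The same held in replicate 1, against 38.2%, and in replicate 2, against 38.3%.

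In order of their strongest pooled signal, in the authors' own unit, the genes were eef-2 with 235.5, iff-2 with 183, eef-1A.1 with 112, eef-1G with 86.2, eef-1A.2 with 62.4 and iff-1 with 39.6. The thresholded list ran from 112 to 868 with a median of 153, and the lowest pooled candidate had 39.5. Thus eef-2 and iff-2 lay above the median of the list, eef-1A.1 at its lower end, and iff-1 at the floor of the candidates. In replicate 1 the order was eef-2 (128), eef-1A.1 (82.4), iff-2 (68.8), eef-1G (59.3), iff-1 (36.4) and eef-1A.2 (35.8). In replicate 2 it was iff-2 (111), eef-2 (108), eef-1G (29.1), eef-1A.2 (28.9), eef-1A.1 (21.0) and iff-1 (20.2). Both replicates placed eef-2 among their first 2 genes of the 6, and eef-1A.1 moved most, next to the highest in replicate 1 and next to the lowest in replicate 2. Counted by the strongest 267 candidates of a single replicate, as many as the thresholded list holds, replicate 1 had a summit at eef-2, iff-2 and eef-1A.1, against 1.19% of all protein-coding genes. Replicate 2 had one at eef-2 and iff-2, against 1.37%. Read depth is unknown and the replicates' lists differ in scale, with a lowest signal of 24.7 in replicate 1 and 20.1 in replicate 2. In the pooled list and in replicate 2 both eef-2 and iff-2 were above the other 4 genes, whereas in replicate 1 eef-1A.1 came between them. The order of other neighbours also differed between the replicates. The middle of the pooled order depended on how summits were given to genes: counted only for its nearest protein-coding start, the best signal was 53.5 at eef-1A.1 and 49.8 at eef-1G, both below the 62.4 of eef-1A.2. With a window of 500 bp upstream to 100 bp downstream, eef-1G had 49.8 and eef-1A.2 had 47.1. There eef-1A.1 kept its 112, so the order stayed the same.

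**Figure D1:**
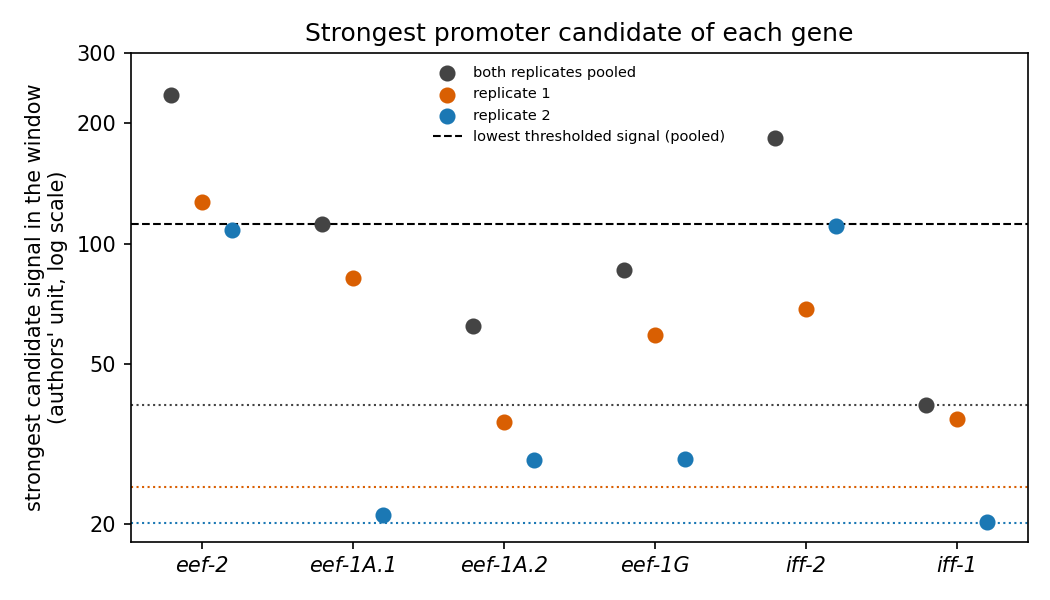
Strongest candidate signal in the promoter window of each gene (vertical axis, authors' unit, log scale), for the pooled list and for each replicate; dotted lines give the lowest signal of each candidate list and the dashed line the lowest thresholded signal, 112. The genes eef-2 and iff-2 are high in both replicates, whereas eef-1A.1 has 82.4 in replicate 1 and 21.0 in replicate 2.

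The gene for eEF2, eef-2 (WBGene00001167), spans 9163531 to 9166952 on the plus strand of chromosome I in ce11. Its thresholded peak ran from 9163338 to 9163707, ranked 60 of 267, and had a deposited −log10 q of 2.10, the highest value in the list, which other peaks share. The summit lay 8 bp upstream of the most upstream annotated start, outside protein-coding genes. In replicate 1 the summit was on the identical base, with a signal of 128 and rank 51 of 30000. In replicate 2 it lay 8 bp away, exactly on the annotated start, with a signal of 108 and rank 72. The replicates thus had this peak at nearly the same height, with a log2 ratio of replicate 1 to replicate 2 of 0.24. Over the 255 thresholded peaks with a candidate of each replicate within 100 bp, the median of that ratio was 0.02 with an SD of 0.54, and 164 peaks were more unequal than eef-2. On the other strand clsp-1, which encodes a claspin homolog of the replication checkpoint, started 257 bp from the summit. The pooled summit thus lies between both genes, and the peak interval reaches into eef-2. Weaker candidates in the window of eef-2 were one at -610 bp (pooled signal 65.0, rank 4314) in a coding exon of clsp-1, and one in an intron of eef-2 itself. The second of these had 59.0 in the pooled list and 36.9 in replicate 2, rank 2522, and lay exactly at the edge of the window, 200 bp downstream of the last of its 3 annotated starts. Replicate 1 had a candidate of 29.8 in a coding exon, 122 bp downstream of that start, and replicate 2 one of 28.4 at -692 bp, in a coding exon of clsp-1.

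Of the eIF5A genes, iff-2 (WBGene00002065) lies on the minus strand of chromosome II at 8559375 to 8561367. Its peak, at 8561238 to 8561607, ranked 97 of 267 with a −log10 q of 1.81, and the summit lay 56 bp upstream of the most upstream of its 2 annotated starts. Replicate 1 had a signal of 68.8, rank 220, with the summit 17 bp away. Replicate 2 had 111, rank 71, on the identical base. Both replicates held the peak among their strongest 267, and replicate 2 was higher, with a log2 ratio of -0.69. Of the 255 peaks with both values, 42 were more unequal than that. The window of a snoRNA gene, F54C9.12, held the summit at -651 bp, and that of the protein-coding gene F54C9.14, on the other strand, at -879 bp. No other candidate of any list lay in the window of iff-2.

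The other eIF5A gene, iff-1 (WBGene00002064), lies on the minus strand of chromosome III at 9745862 to 9747193 and has 3 annotated starts spread over 1036 bp. Its strongest pooled candidate had a signal of 39.6 and ranked 29767 of 30000, in an intron 209 bp upstream of an internal start. The candidate of replicate 1 (36.4, rank 7933) lay 38 bp from it, 171 bp upstream of the same start. The candidate of replicate 2 (20.2, rank 29513) lay elsewhere, in a coding exon 131 bp downstream of the first start. The replicates therefore had no shared summit within 100 bp at iff-1. Upstream of the first start, no candidate lay in the window in any of the lists. The cell cycle kinase gene cdk-1, on the other strand, shared the pooled summit at 659 bp from its start.

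Between the eIF5A paralogs, iff-2 was higher than iff-1 in every list. The ratio of the strongest signals was 4.63 in the pooled list, 1.89 in replicate 1 and 5.48 in replicate 2. In the pooled list iff-1 had 39.6, near the lowest listed signal of 39.5. In replicate 2 it had 20.2, near the lowest of 20.1, and at another place in the gene. The pooled and replicate 2 ratios thus set iff-2 against values at the floor of the lists. Both genes were measured in the same 2 replicates, and the pair was chosen with the difference between them known, so no test was run. The proteins they encode were 69.2% identical over an alignment of 195 residues, with 161 residues in IFF-2 and 195 in IFF-1 in the longest annotated forms. Their coding sequences were 65.0% identical, and 100% of the 36-base words in the gene and promoter of each occurred once in the genome. Sequence at the best summits differed in composition, with a GC content of 57.4% at iff-2 and 36.6% at iff-1.

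For eEF1A, the gene eef-1A.1 (WBGene00001168) lies on the minus strand of chromosome III at 6970026 to 6971712, with 1 annotated start. Its peak, at 6971897 to 6972266, had a pooled signal of 112 and was rank 267, the last of the thresholded list. The −log10 q was 0.525, near the list's lowest of 0.523. The summit lay 370 bp upstream of the start of eef-1A.1. It was nearer to 2 other starts, 171 bp upstream of rfc-4, a clamp loader subunit gene on the other strand, and 3 bp inside cel-mir-5549, a microRNA gene on the same strand as eef-1A.1. Which of these genes the signal belongs to cannot be told apart.

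The peak at eef-1A.1 rested on replicate 1. There the summit lay 3 bp from the pooled one, with a signal of 82.4 and rank 125. In replicate 2 no candidate overlapped the peak, and of the 267 thresholded peaks it was the 1 for which this held. The candidates that replicate 2 did have in the window lay at -883 bp, in an intron of rfc-4, and at 127 bp, in the coding exon of eef-1A.1. Both had a signal of 21.0, close to the lowest listed value of 20.1, and ranks of 26870 and 26884. The site 119 bp downstream also appeared in the pooled list, with 53.5 and rank 11065, and in replicate 1, with 29.5 and rank 18082. This weak candidate in the coding exon was thus the position in the window that all 3 candidate lists shared to within 8 bp. The peak upstream was not.

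The second eEF1A gene, eef-1A.2 (WBGene00001169), lies on the plus strand of the X chromosome at 7823654 to 7825769. It had no thresholded peak. Its strongest pooled candidate lay at -605 bp, with a signal of 62.4 and rank 5366. Replicate 2 placed its candidate on the identical base (28.9, rank 9056) and replicate 1 placed one 27 bp away (35.8, rank 8576), so this weak site occurred in both replicates. A further candidate lay at -371 bp in the pooled list (47.1, rank 18047) and at -376 bp in replicate 1 (33.6). Just outside the window, 251 bp downstream of the start in a coding exon, lay a candidate of 63.0, rank 5083, slightly above the best one inside.

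The contrast between the strongest candidates of the eEF1A paralogs changed direction with the replicate. The ratio of eef-1A.1 to eef-1A.2 was 1.80 in the pooled list and 2.30 in replicate 1, but 0.727 in replicate 2. In replicate 1 the strongest signals were 82.4 at eef-1A.1 and 35.8 at eef-1A.2, and in replicate 2 they were 21.0 at eef-1A.1 and 28.9 at eef-1A.2. The 21.0 belongs to a candidate at -883 bp, near the lowest listed signal of 20.1. At the peak 370 bp upstream replicate 2 had no candidate, so the replicates are compared at different places of eef-1A.1. The pooled direction also reversed when each summit was counted only for its nearest protein-coding start, with 53.5 at eef-1A.1 and 62.4 at eef-1A.2. With 2 replicates that differed in direction, and no spread computed, the pair is not called separated here. Both genes encode the same protein, with 463 of 463 residues identical, and their coding sequences were 94.0% identical. Inside the genes 94.2% of the 36-base words of eef-1A.1 and 95.4% of those of eef-1A.2 occurred once in the genome. In the promoter windows and the peak intervals it was 100% for both, counting exact copies only; the read length is not given in the sources used here. The genes also lie on different chromosomes. A thresholded summit was found at 6 of 2731 protein-coding genes on X (0.220%) and at 77 of 2640 on chromosome III (2.92%). Among genes on X, 156 (5.71%) had a better pooled rank than eef-1A.2, and among those on chromosome III, 75 (2.84%) had a better rank than eef-1A.1. Whether the chromosome had a part in the contrast was not tested.

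**Figure D2:**
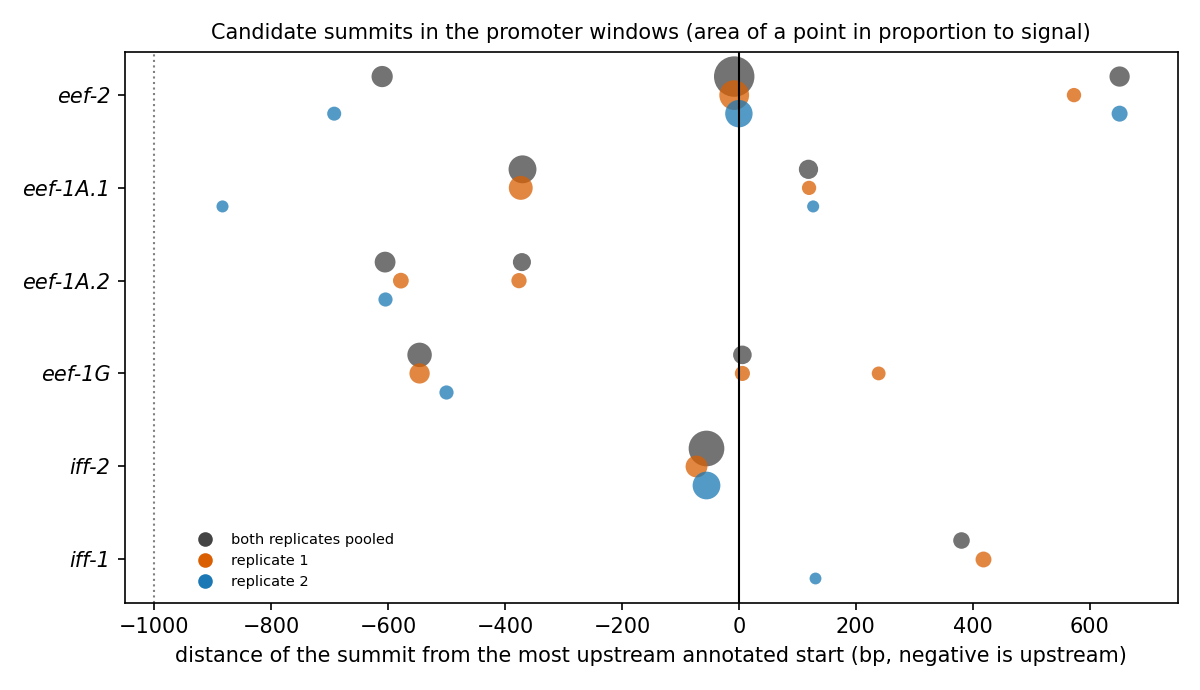
Position of each candidate summit in the promoter windows, as distance from the most upstream annotated start (horizontal axis, bp, negative is upstream; the dotted line is 1000 bp upstream), with the area of a point in proportion to its signal. At eef-2 and iff-2 the 3 lists coincide within 100 bp of the start, and at eef-1A.1 the point at 370 bp upstream has no replicate 2 partner.

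The gene for the gamma subunit of the exchange factor, eef-1G (WBGene00008920), lies on the plus strand of chromosome V at 10965719 to 10967922 and has 5 annotated starts. Its strongest pooled candidate, at 86.2, ranked 801 and lay at -546 bp, in a coding exon of the neighbouring gene ctf-4, which encodes a homolog of a replisome protein. Its −log10 q was 0.198, near the pooled list's lowest of 0.187 and below the 0.275 of the pooled candidate at iff-1. The signal was 59.3 in replicate 1, on the identical base with rank 438, and 29.1 in replicate 2, 45 bp away with rank 8867. The log2 ratio of replicate 1 to replicate 2 was 1.03. Among the pooled ranks 268 to 1000, 589 of 733 candidates had a value in both replicates, with 0.31 as the median log2 ratio (SD 0.60), and 70 of them (11.9%) were more unequal than eef-1G. A second candidate lay 6 bp downstream of the first start, in the 5′ UTR, with 49.8 in the pooled list (rank 14723) and 32.9 in replicate 1, on the identical base. Replicate 2 had none there. Replicate 1 had a further candidate of 27.6 in an intron, at -15 bp from a later start.

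**Figure D3:**
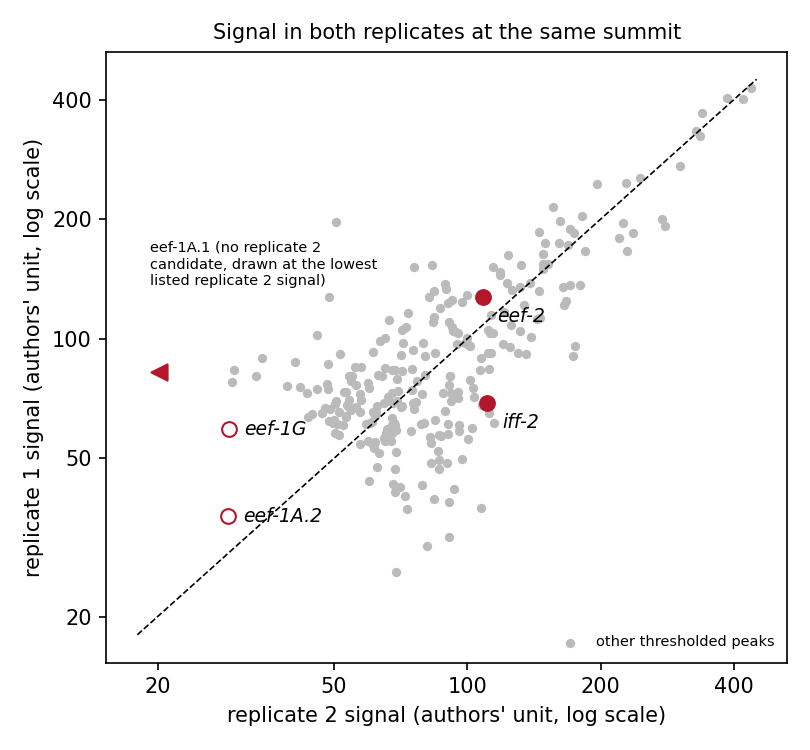
Signal in replicate 1 (vertical axis) against replicate 2 (horizontal axis), both in the authors' unit on log scales, at the 255 thresholded peaks with a candidate of each replicate within 100 bp (grey), with the elongation factor genes in red and those below the list as open circles. The points of eef-2 (128 and 108) and iff-2 (68.8 and 111) lie on either side of the dashed line of equality; eef-1A.1 is a triangle because replicate 2 has no candidate at its peak, and iff-1 is not drawn because it has no replicate 2 summit within 100 bp.

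At the edge of the thresholded list the values were close together. The last ranks inside were 266, with a signal of 112.3 at smr-1, and 267, at eef-1A.1 and rfc-4, with 112.1. The first ranks outside were 268, with 112.0 and no protein-coding gene in its window, and 269, with 111.6 at nhr-47, a nuclear hormone receptor gene, and dnj-19, a gene of the DnaJ co-chaperone family. The pooled ranks next to that of eef-2 at other gene promoters were 59 at Y25C1A.8 (235.6) and 62 at rpl-24.2 (230.0), a gene of the ribosomal protein L24 family. Those next to iff-2 were 96 at Y94H6A.3 (185.0) and 99 at scc-2 (180.8), which encodes a loader of cohesin. These genes are the nearest by pooled rank, which is a single value per gene. By best pooled signal, 73 protein-coding genes ranked before eef-2, 113 before iff-2, 274 before eef-1A.1, 527 before eef-1G, 1987 before eef-1A.2 and 7555 before iff-1, out of 7605 with any candidate.

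**Figure D4:**
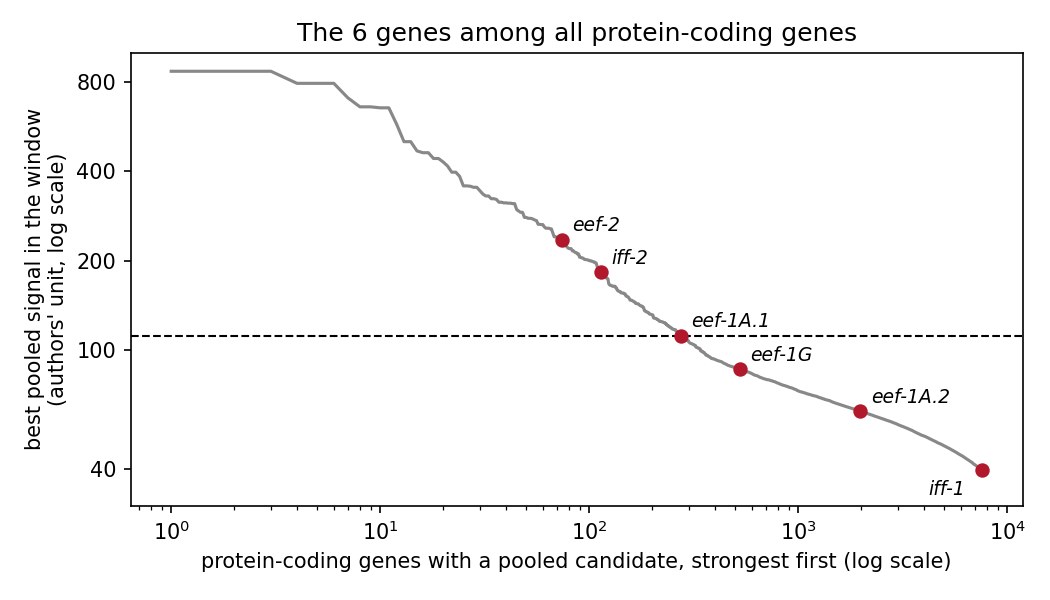
Best pooled signal in the promoter window (vertical axis, authors' unit, log scale) of the 7605 protein-coding genes with a pooled candidate, ordered from the strongest (horizontal axis, log scale), with the 6 elongation factor genes marked and the lowest thresholded signal as a dashed line. The genes eef-2 and iff-2 lie above the line, eef-1A.1 on it and the other 3 below.

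In position, the summits of eef-2 and iff-2 lay nearer to the starts of these genes than in most genes with a thresholded summit. The distances below are per gene, and a summit counts for each gene whose window holds it, as for clsp-1 at -257 bp from the summit of eef-2. Over the 276 genes with a thresholded summit in the window, the distance to the nearest start had a median of -247 bp with quartiles of -442.8 and -131.8 bp, and 52 genes (18.8%) had it within 100 bp, among them eef-2 and iff-2. The summit of eef-1A.1, at -370 bp, fell between the quartiles.

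Sequence at the summits differed among the genes. GC content in the 101 bases was 57.4% at iff-2, 47.5% at eef-2 and 46.5% at eef-1A.1, and it was 43.6% at eef-1G, 36.6% at iff-1 and 35.6% at eef-1A.2. The mean was 48.8% ± 7.49 (SD, n = 267) over thresholded summits and 39.8% ± 7.95 (SD, n = 30000) over pooled candidates. The 3 genes with a thresholded peak thus had the higher GC contents of the 6. GC did not follow the order of the pooled signal throughout, since iff-2 was above eef-2 and iff-1 above eef-1A.2. Its part in the signal was not tested. ACGCAG lay within 50 bp of the best summit at iff-2 and iff-1, against 48 of the 267 thresholded summits and 2.85% of all pooled candidates. In iff-2 it is on the strand opposite to the gene and spans the summit, shown by the capitals in its sequence. It was found at the second strongest gene of the 6 and at the weakest, where the summit is a candidate at the floor of the pooled list. Whether the word has a part in the signal was not tested. GACGCA lay at eef-1G, against 19.5% of thresholded summits and 2.98% of pooled candidates, and CGCGCA at iff-1, against 16.9% and 2.02%. GAGAGA lay at eef-1A.1 and iff-1, against 18.7% and 6.47%. None of the 6 genes had GCGCAC within 50 bp of the summit, against 13.9% of thresholded summits, or GCGTCA, against 14.6%. Likewise none had TATAAA, against 5.62%, CACGTG, against 5.24%, TGACGT, against 8 of 267, or GGGCGG, against 10.9%.

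Over the promoters themselves, taken as 250 bases before to 50 after the most upstream start, TATAAA on either strand was present in eef-1A.1, eef-2 and iff-1, against 37.9% of all protein-coding promoters. On the strand of the gene alone it was present in eef-2 and iff-1, against 24.1%. TTTCAG was present on the strand of the gene in eef-1A.1, eef-1A.2, eef-1G and eef-2, against 39.6% of all. ACGCAG was present in eef-1G and iff-2, against 8.23%. The promoter of eef-1A.2 held CGCGCA and GCGCAC, against 6.08% and 5.60% of all, and GAGAGA was present in eef-1A.1 and eef-1A.2, against 21.8%. Trans-splicing replaces the 5′ end of many worm transcripts, so transcription may begin upstream of the annotated starts used here.

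Other genes of elongation, of hypusine formation and of diphthamide formation, the modification that eEF2 carries, had no thresholded peak. Of 14 such genes found in the annotation, from 21 symbols listed, 0 had a thresholded summit, against 1.38% of all protein-coding genes, and 7 had a pooled candidate, against 38.1%. With so few genes and so low a share, the count of 0 does not set them apart from other genes. Of these 14, 6 are the diphthamide genes dph-1, dph-2, dph-3, dph-5, dph-6 and dph-7, of which dph-5 (58.1), dph-7 (57.5) and dph-6 (51.7) had a pooled candidate. The median best rank over the 7, 8002 of 30000, compares with 12257 over all genes with a candidate. The strongest was eef-1B.1, a gene for the exchange subunit that works with eEF1G, with a pooled signal of 82.8 and rank 1032. Its signal was 28.2 in replicate 1, rank 20931, and 69.7 in replicate 2, rank 173, so it was high in replicate 2 where eef-1A.1 was high in replicate 1. The related gene eef-1B.2 had no candidate in any list. The mitochondrial elongation factor gene gfm-1 had 77.5 with rank 1526, and was alike in replicate 1 (44.3) and replicate 2 (38.1). Of the hypusine enzymes, dohh-1 had 48.9 with rank 15713, under the median pooled candidate of 49.6, and dhps-1 had no candidate in any list. The eEF2 kinase gene efk-1, looked up after the lists had been fixed, had no candidate in any list either.

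Among genes of termination and initiation, 19 of the 29 found, from 32 symbols, had a pooled candidate, against 38.1% of all protein-coding genes, and 2 had a thresholded summit, against 1.38%. Those with a thresholded summit were drr-2, which encodes a homolog of the initiation factor eIF4H, and abcf-2. The summit of drr-2 had a pooled signal of 353 at rank 22, with 167 in replicate 1 and 185 in replicate 2, and lay 164 bp upstream of its start and 182 bp upstream of the histone methyltransferase gene set-16. The summit counted for abcf-2, at -890 bp, lay 35 bp upstream of ant-1.1. The poly(A) binding protein genes had a pooled rank of 11813 at pab-2 and no pooled candidate at pab-1, and the cap-binding gene ife-3 had 101.7 at rank 369. Both eef-2 and iff-2 thus had lower pooled signals than drr-2 and higher ones than ife-3.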

How the data were processed

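ChIP-seq peak lists of 2 biological replicates were used. The authors deposited, for each replicate and for both pooled, 30000 candidate and background regions made as IDR input, and 1 IDR-thresholded list, with a control library behind them per the descriptions deposited with them. The peak signal in the deposited lists is never negative, and its scale and depth are unknown. The deposited −log10 q per peak was only described. The sources used here name no aligner, peak caller or IDR threshold. The deposited summit offset gave the summit base. The ce11 lists were the main data, and 0 peaks ran past a chromosome end. The 267 thresholded peaks equal the first 267 pooled ranks.

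Starts came from Ensembl release 115 (WBcel235), without the mitochondrial genome. Replicate summits were matched within 100 bp. Python 3.11.15, pandas 2.3.3 and Biopython 1.88 (global alignments) were used. The assignment of summits to windows, the word search and the count of copies were checked on simulated data, and the other steps were not. Members, lists and words were chosen with earlier results of these data known. Named genes are the 6 members, genes sharing their best summit, the neighbours in pooled rank, the genes at the edge of the list, and listed translation genes with a thresholded summit. Other genes were named after their values were seen.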

Additional observations from a re-analysis of the deposited data

How the results depend on the processing

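There was 1 group, so no comparison of groups was made, and the paralogs were set side by side within each replicate. With each replicate left out in turn, 2 to 3 of the 6 genes had a summit among the strongest 267 candidates, against 1.19 to 1.37% of all genes, and 6 to 6 had any candidate. Without replicate 1 it was eef-1A.1 that lost its summit. A stricter list, the stronger part of the thresholded one, held eef-2 and iff-2 and lowered the share of all genes to 0.746%. With each summit counted only for its nearest protein-coding start, the peak at eef-1A.1 went to rfc-4, so that 2 of the 6 genes kept one against 0.951% of all, and the best signal was 53.5 at eef-1A.1 and 49.8 at eef-1G, both below eef-1A.2. With a window of 500 bp upstream to 100 bp downstream the best signal was 47.1 at eef-1A.2 and 49.8 at eef-1G, and with 2000 bp upstream to 500 bp downstream it was 52.1 at iff-1. With only the most upstream start of each gene, iff-1 had no candidate. In the ce10 lists, matched by signal to within 0.01% in a comparison added after seeing the data, the peak at eef-1A.1 was rank 267 of 271, inside the list. Matching replicates within 50 or 200 bp or by overlap changed no ratio that could be had within 100 bp, and by overlap iff-1 had a log2 ratio of replicate 1 to replicate 2 of 0.85. Depth is unknown, so the precision of single signals could not be given.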

Other observations

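Beyond the promoter windows, the bodies of the elongation factor genes held weak pooled candidates only. The strongest were 69.0 in an intron of eef-1G (rank 3091), 63.0 in a coding exon of eef-1A.2 (rank 5083), 59.0 in a coding exon of eef-2 (rank 7102), 58.4 in a coding exon of eef-1A.1 (rank 7463) and 45.6 in an intron of iff-2 (rank 19934). No further candidate lay inside iff-1.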
